A study of Mus musculus with 3 samples.

Results

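The regions described here are 226 isolated binding sites of the NUP98-HOXD13 fusion protein that lay between protein-coding genes, out of 1013 peaks in 2 deposited peak lists. A peak of the DMSO list entered when no other DMSO summit lay within 50 kb of its summit, and a peak of the VTP50469 list entered when it overlapped no DMSO interval by even 1 bp. In either case the summit had to lie outside the span of every protein-coding gene on chromosomes 1 to 19, X and Y. The rule gave 98 sites present in both lists, 78 with a DMSO peak only (DMSO alone) and 50 with a VTP50469 peak only (VTP50469 alone). The 98 and 78 are 176 of 613 DMSO peaks, and the 50 belong to 400 VTP50469 peaks. Isolation was not asked of the VTP50469 peaks, but 47 of these 50 had no other summit of either list within 50 kb.

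The cells were a cultured mouse leukaemia line named for NUP98-HOXD13, grown with IL-3, IL-6 and SCF, and in both groups the pulled-down protein was the biotinylated fusion. One group received DMSO and the other 2 µM VTP50469, a small molecule that blocks the contact of menin with MLL, and both were sampled at 96 h. BioChIP-seq captures crosslinked chromatin through the biotin on the protein, with streptavidin beads and no antibody. Each treatment had 1 library from 1 cell line, so there was no replicate and no test across samples, and a DMSO input was not analysed here. How the fusion was expressed and tagged is not given in the sources used here, and peak lists hold no expression with which to check the labelled cell type.

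NUP98-HOXD13 joins the part of a nucleoporin that carries phenylalanine-glycine repeats to the homeodomain of HOXD13, which binds AT-rich DNA. Menin tethers the histone methyltransferase MLL to chromatin, and inhibitors of the contact release MLL from many of its targets in leukaemia cells. Stretches between genes hold enhancers as well as long deserts without known regulatory elements, and the nearest gene of a site is not necessarily a gene it controls.

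For 5 of the 226 sites the peak reached the stretch just upstream of a listed gene start, and the part shared by peak and upstream stretch, up to the edge of the gene span, is printed here because these sites are among those nearest to a gene. The sequences are RefSeq GRCm38.p6, read 5′ to 3′ on the strand of the gene. Capitals mark CAATAAA, a motif of the kind bound by HOXD13, found on either strand. Crisp1 and Crisp3 (both lists) lie at chr17:40319208-40319457 and chr17:40242289-40242534 on the minus strand. Cp and Scfd1 (DMSO alone) lie at chr3:19956804-19956932 and chr12:51377263-51377477 on the plus strand, and Vmn1r166 (VTP50469 alone) at chr7:23251882-23251932 on the minus strand.
Crisp1: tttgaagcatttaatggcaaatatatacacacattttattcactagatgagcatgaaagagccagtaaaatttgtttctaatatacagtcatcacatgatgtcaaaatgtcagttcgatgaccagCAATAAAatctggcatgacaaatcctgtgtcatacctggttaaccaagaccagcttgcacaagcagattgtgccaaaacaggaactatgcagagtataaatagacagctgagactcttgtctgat
Crisp3: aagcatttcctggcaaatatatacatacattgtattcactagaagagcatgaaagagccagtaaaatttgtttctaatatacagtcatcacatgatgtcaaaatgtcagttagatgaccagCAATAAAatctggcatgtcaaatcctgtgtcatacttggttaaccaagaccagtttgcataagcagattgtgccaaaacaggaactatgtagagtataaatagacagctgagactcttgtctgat
Cp: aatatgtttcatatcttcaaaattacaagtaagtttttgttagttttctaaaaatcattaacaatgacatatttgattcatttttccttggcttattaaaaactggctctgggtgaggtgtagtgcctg
Scfd1: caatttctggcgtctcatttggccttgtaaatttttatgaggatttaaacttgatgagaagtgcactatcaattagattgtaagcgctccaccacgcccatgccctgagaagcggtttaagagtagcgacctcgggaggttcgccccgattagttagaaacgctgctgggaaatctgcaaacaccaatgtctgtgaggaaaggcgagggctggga
Vmn1r166: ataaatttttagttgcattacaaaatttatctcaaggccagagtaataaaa
The summits of Crisp1, Crisp3 and Scfd1 fall within the printed stretch, while those of Cp and Vmn1r166 fall just beyond it.

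CAATAAA occurred in 2 of these 5 stretches, and over the full 250 bp upstream in 3 of the 5 genes, against 4.20% of 32851 RefSeq upstream windows of that length. Of the 3, Crisp1 and Crisp3 have nearly the same window and do not count as separate occurrences. The match of Vmn1r166 lies outside its printed stretch. The 4.20% is over all windows and not over windows of like G and C content. TGACAG, the motif of MEIS-type homeodomains, searched on both strands, occurred in 0 of the 5 upstream windows and in 15.9% of all windows. A match describes these letters and is not evidence of binding. G and C made up 36.8% of the printed stretch of Crisp1, 35.8% of Crisp3, 29.5% of Cp, 47.9% of Scfd1 and 23.5% of Vmn1r166. The median over all 250 bp windows was 52.4%, but the stretches of Cp and Vmn1r166 are only 129 and 51 bp long. The upstream windows of Crisp1 and Crisp3 were identical at 239 of 250 bases, or 95.6%, so the short reads at these neighbours may be shared and both values are uncertain.

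The lists give no read totals. Each peak carries the authors' fold enrichment over background and their −log10 p and q, which serve here only within their own list. From fold and p, the number of fragments at a summit was rebuilt as the whole number that yields both values under a Poisson model. This gave 612 of 613 DMSO and 397 of 400 VTP50469 peaks. The weakest listed summits held 28 and 26 fragments, and the VTP50469 library came out 5.50% shallower if both were set against the same control, which the sources do not state. At 17 of the 226 sites the local background was at least 3 times the library's common level.

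The set ran from sites beside a gene end to sites far out in gene-poor stretches. The summit lay within 10 kb of a protein-coding gene at 36 of 226 sites and under 2 kb at 12. It lay over 100 kb away at 105 sites, or 46.5% (39.8 to 53.2%), and over 500 kb away at 38. Positions set every 10 kb along the same chromosomes gave similar shares where they fell between genes, of which 15.4% lay within 10 kb of a gene, 47.3% beyond 100 kb and 14.1% beyond 500 kb. The intervals on shares are exact Clopper-Pearson 95% intervals and cover counting error only.

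The median distance was 72.6 kb (41.0 to 115 kb) for sites in both lists, 86.9 kb (56.5 to 145 kb) for DMSO alone and 133 kb (62.9 to 276 kb) for VTP50469 alone. The intervals overlap, and the difference between the groups was not tested. Which genes are counted moves these values: with predicted and receptor genes left out, VTP50469 alone lay at 260 kb (114 to 468 kb), and with every RefSeq gene counted at 22.0 kb (9.63 to 34.3 kb). Over 500 kb from a gene lay 13 of 98, 12 of 78 and 13 of 50 sites. The 63 DMSO peaks between genes that did have another DMSO summit within 50 kb lay at a median of 23.9 kb (14.1 to 91.6 kb). The isolated ones, at 76.4 kb (55.3 to 115 kb), were a median of 1050 kb from the next DMSO summit.

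**Figure D1:**
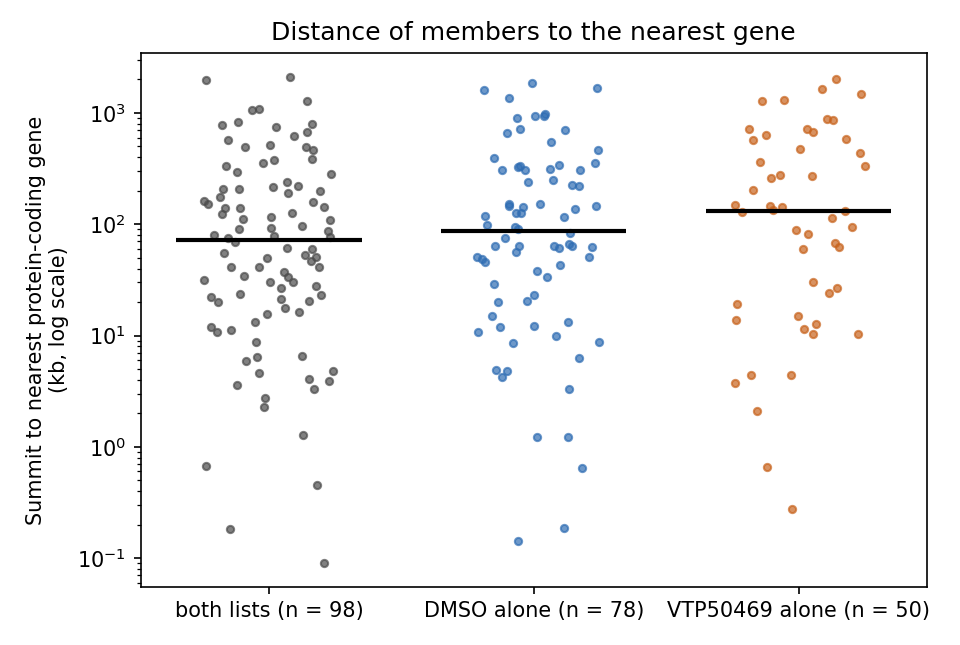
Distance from summit to nearest protein-coding gene in kb on a log axis, 1 point per site, for both lists, DMSO alone and VTP50469 alone; points are spread sideways for legibility and black lines are medians. The 3 groups cover the same range and their medians are 72.6, 86.9 and 133 kb.

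Sites outside coding genes were in part inside other genes. A long non-coding RNA span held 23 of 226 summits, or 10.2%, against 10.6% of the evenly spaced positions between genes. Spans that RefSeq types as pseudogene held 6, or 2.65%, against 1.40% of the positions. Transcribed pseudogenes are a separate RefSeq type and are not in the 6. Their spans held the summits nearest to Speer4e, Gm15319 and Lipo4. Of the 98 sites in both lists, 4 had a summit within 2 kb of a gene that RefSeq types as snRNA, as did 0 of 78 and 0 of 50 in the other groups. That is 4.08% of the 98, where the share was 2.12% over all 613 DMSO peaks and 0.174% of the evenly spaced positions between genes, and these differences were not tested. These 4 were nearest to the coding genes Gtf3c6, Alyref2, Slfn14 and Rdm1. Gtf3c6 encodes a subunit of TFIIIC, a general transcription factor of RNA polymerase III. Its site lay 298 bp from Rnu3a, a U3 RNA gene. That site held 174 fragments with DMSO and 161 with VTP50469, at a local background 3.81 times the common level. Alyref2 encodes an mRNA export factor, and its site held 127 and 114 fragments, 241 bp from the snRNA gene LOC115487699.

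The first comparison asks which isolated DMSO sites were also listed with VTP50469. Of the 176, 98 overlapped a VTP50469 peak, or 55.7% (48.0 to 63.2%), where the share over all 613 DMSO peaks was 49.8%. Isolated peaks inside genes were found again at 74 of 181, or 40.9% (33.6 to 48.4%), and peaks within 50 kb of another at 133 of 256, or 52.0% (45.6 to 58.2%). Of the latter, those between genes gave 48 of 63, or 76.2% (63.8 to 86.0%). Those inside genes gave 85 of 193, or 44.0% (36.9 to 51.35%). The interval of isolated sites between genes holds the share of all peaks, and its lower end meets the upper end of isolated peaks inside genes. Differences between these shares were not tested.

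Peak strength moved with this share. In 4 bins of the DMSO list by −log10 q, the sites between genes were in both lists at 17 of 64, 23 of 40, 23 of 36 and 35 of 36, that is 26.6%, 57.5%, 63.9% and 97.2%. Isolated peaks inside genes gave 14.9%, 34.0%, 43.2% and 81.1% in the same bins. The share was higher between genes in each of the 4 bins, and the intervals of the 2 kinds overlap in all 4. The 1 site of the strongest bin without a VTP50469 peak was the one at Cp. Within 100 kb of a gene 57 of 99 sites were found again, or 57.6% (47.2 to 67.5%), and beyond it 41 of 77, or 53.2% (41.5 to 64.7%), and this difference was not tested.

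**Figure D2:**
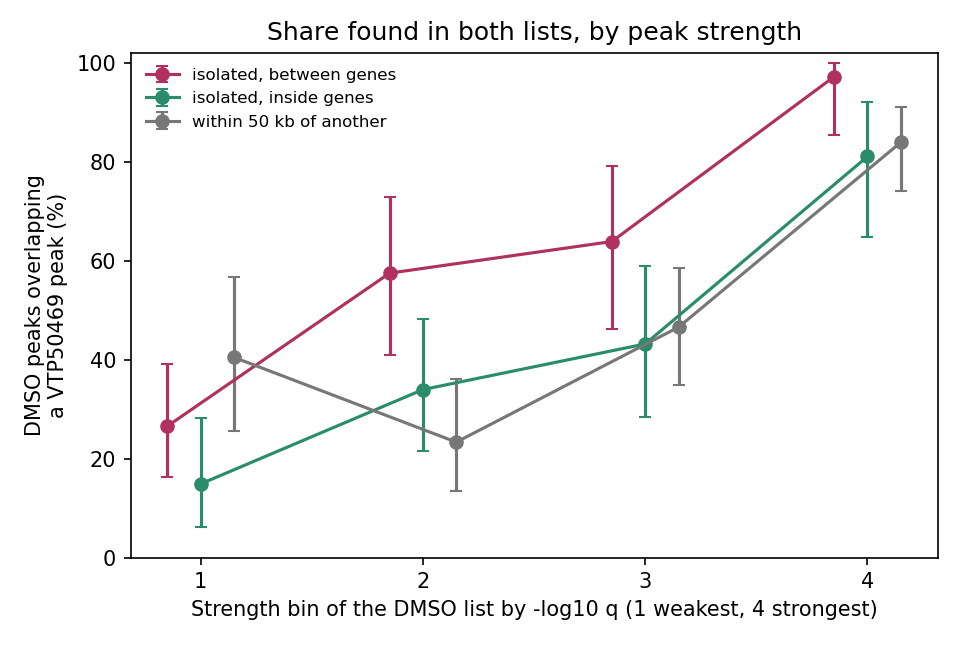
Percent of DMSO peaks that overlap a VTP50469 peak, in 4 bins by −log10 q, for isolated sites between genes, isolated sites inside genes and peaks within 50 kb of another; bars are exact 95% intervals of counting error. Sites between genes go from 26.6% in the weakest bin to 97.2% in the strongest.

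At sites in both lists, the middle of the fragment ratios lay near 1. A matched summit within 200 bp and rebuilt counts on both sides were available at 91 of the 98, and the median ratio of VTP50469 to DMSO, scaled for depth, was 0.991 (0.952 to 1.04). The ratio was below 1 at 47 sites and above 1 at 44. By an exact binomial test on the fragments of the 2 libraries, with Benjamini-Hochberg adjustment over all 288 matched summits, 0 of 91 were lower and 0 higher, where 9.72% of all matched summits were lower and 0% higher. At an unadjusted p under 0.05, 6 were lower and 4 higher, against 19.8% and 1.39% of all matched summits. This test compares 2 libraries and says nothing on variation between cultures. A ratio exists only where the VTP50469 list also holds a peak. The 78 sites of the DMSO list alone have none, and VTP50469 counts under the weakest listed summit, 26 fragments, cannot appear. Low ratios are therefore left out, above all where the DMSO count is low, and the 0 of 91 lower covers sites found again only.

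The other DMSO peaks had lower median ratios. Isolated peaks inside genes had a median ratio of 0.904 (0.855 to 0.975, n = 72) with 6 lower, and peaks within 50 kb of another had 0.806 (0.771 to 0.851, n = 125) with 22 lower. The interval of the sites between genes does not overlap that of the peaks near another, and overlaps that of isolated peaks inside genes. In the strongest bin, where counts are highest, the medians were 0.957 (0.876 to 1.02, n = 34) between genes, 0.858 (0.709 to 0.974, n = 30) inside genes and 0.742 (0.700 to 0.799, n = 66) near another peak. With the median ratio of all matched summits set to 1, the median between genes was 1.10, and with no scaling for depth it was 0.937, so the side of 1 on which these sites lie depends on the scaling. A scaling multiplies every ratio by the same number and leaves the order of the 3 medians as it is. All 3 medians leave out the DMSO peaks that were not found again. The share found again was 55.7% between genes, 40.9% inside genes and 52.0% near another peak, so the medians do not describe all peaks of each kind.

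**Figure D3:**
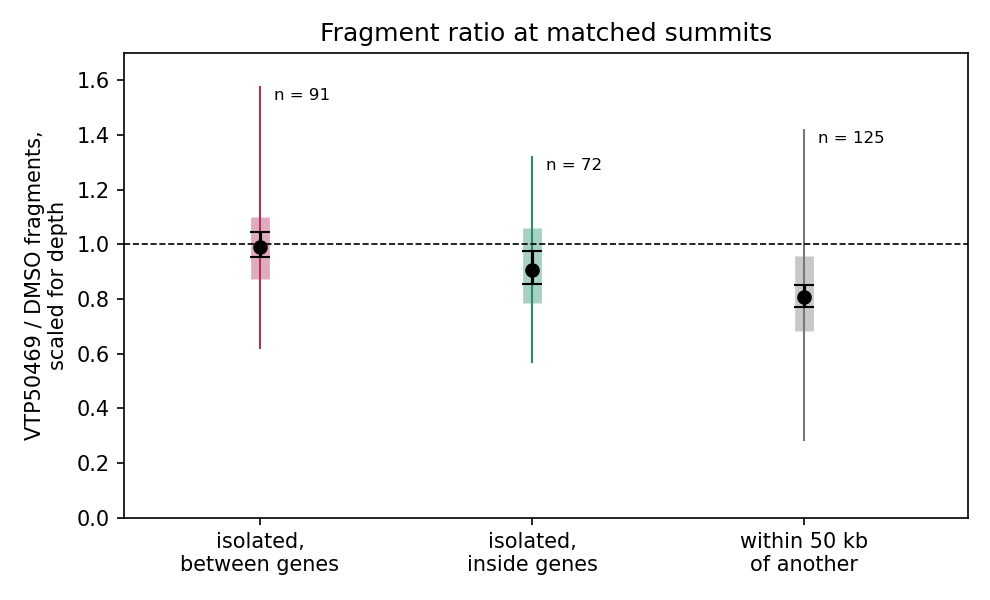
Ratio of VTP50469 to DMSO fragments at matched summits, scaled for depth, for the 3 kinds of DMSO peak; thin lines are the full range, wide bars the quartiles, black points the medians with 95% intervals over sites. The median is 0.991 for isolated sites between genes, 0.904 for those inside genes and 0.806 for peaks within 50 kb of another.

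The strongest site by fold, at chromosome 12, 69685454 to 69686019, lay 3883 bp from Sos2, which encodes an exchange factor that activates Ras. It held 208 fragments with DMSO and 156 with VTP50469, a ratio of 0.794 (0.641 to 0.982, adjusted p = 0.171 by the exact binomial test). The next, 787 kb from Tmprss15, the gene of enteropeptidase, held 168 and 156 fragments. The 2 sites held the same count with VTP50469, while the one beside Sos2 was the higher with DMSO.

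Dusp6 encodes a phosphatase that switches off ERK, and the site 86.6 kb from it fell in the same high range with DMSO, at 147 fragments, and gave 104 with VTP50469. Its ratio of 0.749 (0.577 to 0.969) had an adjusted p of 0.162 by the exact binomial test. The site 34.0 kb from Clvs1, a lipid-binding protein of the endosomal system, held 145 and 121 fragments. Neither difference passed the adjusted threshold.

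Other tall sites gave similar counts in the 2 libraries, at any distance from a gene. The site nearest to Iftap, 1090 kb away, held 166 fragments with DMSO and 181 with VTP50469. The site 389 kb from Tbc1d32, which encodes a protein of the primary cilium, held 143 and 138. The site 750 kb from Pcdh17, a protocadherin of cell adhesion, held 118 and 103. At 6417 bp from Gnptab, which encodes subunits of the enzyme that marks lysosomal proteins, the counts were 133 and 114.

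The lowest ratios among the 91 were at Cdk6, Samsn1 and Zfp935, and none passed the adjusted threshold. Cdk6 encodes a cell cycle kinase often active in leukaemia, and its site, at chromosome 5, 3338581 to 3340063, lay 2258 bp from the gene and inside the long non-coding RNA Gm36470. It held 67 fragments with DMSO and 39 with VTP50469, a ratio of 0.616 (0.404 to 0.928, adjusted p = 0.109 by the exact binomial test). Its interval was overlapped by 2 VTP50469 peaks, and when the peak with the larger overlap was used instead the ratio was 0.426 (0.262 to 0.676) and the adjusted p 0.00261. The summit of the peak with 39 fragments lay 15 bp from the DMSO summit, and that of the other peak lay farther away. The ratio of 0.426 thus compares 2 different positions within the interval and is not a change at the DMSO summit.

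Samsn1 encodes an adaptor of blood cells, and the site 92.4 kb from it held 78 and 46 fragments, a ratio of 0.624 (0.424 to 0.910). At Zfp935, a zinc finger gene, the counts were 103 and 63, a ratio of 0.647 (0.465 to 0.894). The adjusted p was 0.0908 and 0.0582 by the exact binomial test. In the other direction, the site 678 kb from Immp2l, which encodes a protease of the mitochondrial inner membrane, held 105 and 135 fragments, a ratio of 1.36 (1.05 to 1.77). The site 97.4 kb from the predicted gene Gm51579 held 92 and 122, a ratio of 1.40 (1.06 to 1.86). Their adjusted p was 0.127 and 0.102 by the exact binomial test.

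**Figure D4:**
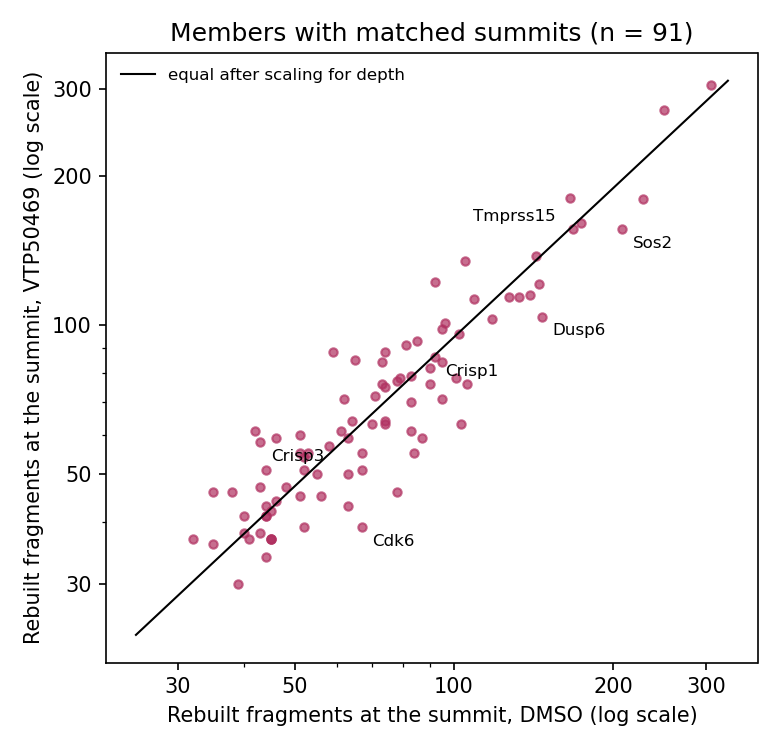
Rebuilt fragments at the summit with DMSO (x) and VTP50469 (y), both on log axes, for the 91 sites with matched summits; the line marks equal numbers after scaling for depth. Points lie on both sides of the line, 47 below a ratio of 1 and 44 above, with Cdk6 the lowest ratio.

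Crisp1 and Crisp3, whose upstream sequences are printed above, encode secreted proteins of the male reproductive tract. Their sites lay 183 and 91 bp from the gene starts. Crisp1 held 92 fragments with DMSO and 86 with VTP50469, and Crisp3 held 43 and 58, a ratio of 1.43 (0.946 to 2.17, adjusted p = 0.335 by the exact binomial test). Both were in both lists, and Crisp1 was the higher of the pair in each library.

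High background accompanied some sites in both lists. Local background was raised at 11 of the 98, against 4 of 78 and 2 of 50 in the other groups. The highest −log10 q of the DMSO list, 273, belonged to a wide interval of 3436 bp at chromosome 14, 19415980 to 19419415, with a fold of only 1.51. It lay 115 kb from Gm2244 and its fragments could not be rebuilt. The site 22.3 kb from Ly6c2, a surface antigen of monocytes, held 306 and 305 fragments at a background 27.6 times the common level. Leaving out the sites with raised background gave a median ratio of 0.990 at the remaining 82, which is as close to 1 as with them.

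Sites of the DMSO list alone were mostly low. Their median was 39.5 fragments, where sites in both lists had 67, and their median fold was 6.14 (5.69 to 6.44) against 8.09 (7.19 to 9.74). The weakest summit in the VTP50469 list had 26 fragments, or 27.5 at the depth of the DMSO library. At 33 of 78 sites the DMSO count was at least 1.5 times that floor, at 17 at least 2 times and at 3 at least 3 times. At the remaining sites, a count lower by less than that factor would already be unlisted. The floor is that of summits at the common background, and a summit at a raised background needs more fragments to be listed. The 3 highest counts were at Cp (119 fragments), Gm15319 (101) and Zfp980 (89). Their local backgrounds were 1.52, 9.89 and 3.36 times the common level, so the latter 2 may lie closer to their own limit. The lists do not give the VTP50469 count where no peak was called.

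The tallest of them lay 141 bp from Cp, the gene of the copper protein ceruloplasmin, at chromosome 3, 19956624 to 19956992, with 119 fragments and a fold of 14.1. Scfd1, which encodes a factor of transport between the endoplasmic reticulum and the Golgi, had a site of 70 fragments at 185 bp and another of 43 at 20.4 kb, both without a VTP50469 peak. Calcrl, the receptor of calcitonin gene-related peptide and adrenomedullin, had a site of 82 fragments at 647 bp, at 2.28 times the common background. These 3 genes thus had DMSO sites just upstream of the gene with no VTP50469 peak.

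Farther out, the site 64.0 kb from Tfec, a transcription factor of the MiT family, held 67 fragments. Another with 67 lay 306 kb from Ndufa4, a protein of the respiratory chain. Tle4 encodes a corepressor of the Groucho family, and 2 sites of the DMSO list alone, with 59 and 49 fragments, lay 137 and 66.9 kb from it. The site 8542 bp from Muc13, a membrane mucin, held 59, and that 546 kb from Fam98a held 60.

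Genes of leukaemia and self-renewal stood nearest to 7 of the 226 sites, or 3.10%. Of the 7, 5 were in the DMSO list alone, where 78 of all 226 sites were, and this difference was not tested. Genes of leukaemia and self-renewal made up 0.224% of coding genes, but 1.01% of the evenly spaced positions between genes have one of them as nearest gene. Meis1 encodes a homeodomain partner of HOX proteins, and its site lay 4211 bp from the gene at chromosome 11, 19023746 to 19024066, with 58 fragments at 1.52 times the common background. The others were low and far, with 39 fragments 146 kb from Meis2, 38 fragments 151 kb from Mycn, 34 fragments 710 kb from Myc and 38 fragments 145 kb from Angpt1. The weakest listed VTP50469 summit had 27.5 fragments at the depth of the DMSO library, so a count not much lower would already be unlisted. Meis2 is a paralogue of Meis1, Myc and Mycn encode growth-promoting factors, and Angpt1 encodes a ligand of the Tie2 receptor. Only Cdk6 and Meis1 of these genes lay within 100 kb of their site.

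The other lists are small shares of all genes, so few sites could be counted for them. Genes of the HOX clusters and their neighbours, 0.210% of coding genes, were nearest to 0 of 226 sites. They were nearest to 5 of the 63 DMSO peaks between genes that lay within 50 kb of another. The isolation rule leaves out DMSO peaks that lie close together, as these 5 did, so the 0 is no finding about the sites. Lymphoid genes, erythroid and megakaryocyte genes, and genes of the MLL and menin complexes were also nearest to 0 of 226. They make up 0.0914%, 0.0685% and 0.0914% of coding genes, so these zeros are near the background and say nothing about the sites. Myeloid genes, 0.128% of coding genes, were nearest to 2, namely Ly6c2 in both lists and F13a1, the A subunit of coagulation factor XIII, in the VTP50469 list alone. The evenly spaced positions were not counted for myeloid genes by themselves, so the 2 sites cannot be read as more than background.

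The second comparison asks what the inhibitor's list added. Of 400 VTP50469 peaks, 22.2% overlapped no DMSO peak, which is 89 peaks, and 50 of the 89 lay between genes. Over all VTP50469 peaks 199 of 400 lay between genes, as did 61.6% of positions set every 10 kb. The difference was not tested. The 50 were as low as the sites of the DMSO list alone, with a median of 38.5 fragments and a median fold of 6.16 (5.73 to 6.69). None had a DMSO summit within 1 kb, and 3 had one within 50 kb.

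The strongest by −log10 q, at chromosome 16, 58756112 to 58756556, lay 3768 bp from the odorant receptor gene Olfr172 and held 71 fragments at 1.55 times the common background. The site 113690 bp from Cited2, which encodes a coactivator partner of CBP and p300 needed in blood stem cells, held 50 fragments and lay in the long non-coding RNA Gm32543. The site 146 kb from F13a1 held 55, and that 94.0 kb from Lpar1, a receptor of lysophosphatidic acid, held 65 at 2.32 times the common background. Just upstream of a gene, 42 fragments lay 664 bp from Spef2, a gene of the sperm flagellum, and 46 lay 274 bp from the pheromone receptor gene Vmn1r166.

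Receptor genes of smell and adhesion genes were among the nearest genes. Odorant or vomeronasal receptor genes were nearest to 7 of the 50 sites, or 14.0%, and to 3 of 98 and 3 of 78 in the other groups, while 2.902% of evenly spaced positions between genes had one as nearest. Cadherins or protocadherins, which join cells through calcium-dependent contacts, were nearest to 9 of the 50, or 18%, and to 14 of all 226, against 2.59% of the evenly spaced positions. Of the 9, 8 lay on chromosome 15 and 5 of these were nearest to Cdh9. The tallest held 54 fragments, 1476 kb from Cdh9, and the next 48 fragments, 359 kb from Cdh12. The remaining 1 lay 476 kb from Cdh2.

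Chromosome 15 was singled out after its values were seen. It carried 12 of the 50 sites of the VTP50469 list alone, or 24.0% (13.1 to 38.2%), against 9 of the 176 isolated DMSO sites, or 5.11%, and 3.84% of the evenly spaced positions between genes. Over all peaks it carried 25 of 613 DMSO and 29 of 400 VTP50469 peaks. The 12 spread from 5517481 to 46006328 on the chromosome, held 26 to 54 fragments, and 11 lay at the common background. At the 14 matched summits of chromosome 15 the median ratio was 1.01 (0.668 to 1.22), against 0.898 (0.870 to 0.936) at 274 elsewhere. The intervals overlap, and the difference was not tested. The copy number of the chromosome in the 2 cultures was not measured here. Shares were also uneven elsewhere: chromosome 12 carried 19 of the 176 isolated DMSO sites, or 10.8% (6.63 to 16.3%), against 4.72% of the evenly spaced positions. It carried 39 of all 613 DMSO peaks, and this difference was not tested.

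**Figure D5:**
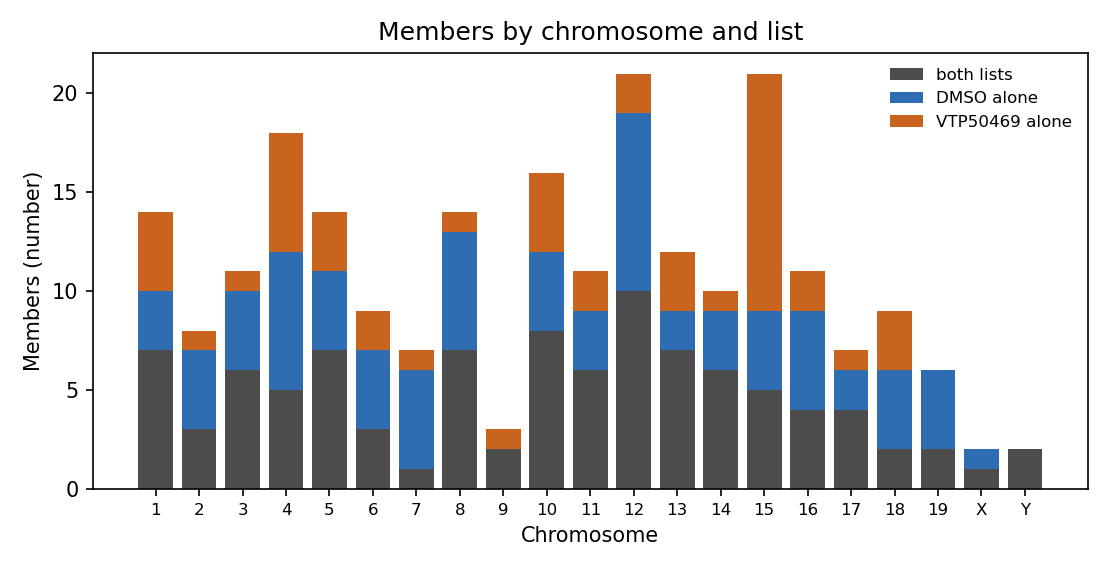
Number of sites per chromosome, stacked by list (both lists, DMSO alone, VTP50469 alone). Chromosome 15 carries 12 sites of the VTP50469 list alone, more than any other chromosome.

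The 3 sites farthest from a gene were low. Of these, 2 were in both lists and 1 in the VTP50469 list alone. Those in both lists were 2094 kb from Pcdh9, a protocadherin, with 43 fragments with DMSO and 38 with VTP50469, and 1964 kb from Tmeff2, a membrane protein with follistatin-like domains, with 42 and 61. The latter's ratio was 1.54 (1.02 to 2.33, adjusted p = 0.185 by the exact binomial test). In the VTP50469 list alone, the site 2030 kb from Pik3c3, the class III phosphoinositide kinase of autophagy, held 34 fragments.

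The limit of 50 kb left 176 isolated DMSO sites between genes, against 185 at 25 kb and 159 at 100 kb. Just inside the limit of 50 kb were the sites nearest to Zfp600, with the next DMSO summit at 50587 bp, and to Speer4e, at 51419 bp. Just outside were peaks nearest to Ahi1, at 47503 bp, and to Gm40469, at 44808 bp.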

How the data were processed

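Peaks of 2 pull-down libraries (DMSO and VTP50469) were analysed, and the input was not analysed here. The authors deposited 1 peak list per library, with a fold enrichment (a ratio to background), a −log10 p-value, a −log10 q-value, a score and a summit offset. The build was mm10 and the tools were MACS2, bedtools, STAR 2.7.5a, bcl2fastq 2.20.0.422, SAMtools 1.95 and Picard 2.9.4, per the submitters' processing notes. What each tool did, with which settings, threshold and control, is not given in the sources used here. The deposited score repeats −log10 q and was not used.

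Gene spans came from RefSeq GRCm38.p6 (21887 protein-coding genes on these chromosomes), and strands and upstream sequences from its table of 32851 windows, with no genome sequence used. Fragments were rebuilt from fold and p with a tolerance of 0.001 on −log10 p, and the rebuilding, the choice of sites and the binomial test were tested on simulated data. Medians have exact order-statistic intervals at 95%. Named sites were the 8 strongest by −log10 q of each group, those within 100 kb of a listed gene, those under 2 kb from a gene and the 3 farthest, which gave 39, and others were chosen after their values were seen. The sites, the 6 gene lists (179 genes, 178 found) and the tests were chosen with earlier results of these data known. Python 3.11.15, numpy 2.4.6, pandas 2.3.3, scipy 1.17.1, Biopython 1.88 and matplotlib 3.10.9 were used. Some sites are not reported by name here.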

Additional observations from a re-analysis of the deposited data

How the results depend on the processing

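No paired analysis was possible because there was only 1 library per treatment. Of 64 alternative values, 49 stayed within the interval of the reported value or, for counts, within 1.5 times, and 15 did not. The median ratio, 0.991, crossed 1 with summits within 100 bp (1.01) and with the centring given below. With −log10 q of at least 5, 48 sites were in the DMSO list alone and the share found again was 64.4%. At 10 or more, 59 sites were in both lists, 24 had a DMSO peak only and 14 a VTP50469 peak only, and the share was 71.1%. With the DMSO list held to the length of the VTP50469 list the share was 76.7%, and 51.9% for isolated peaks inside genes. Counting all RefSeq genes put the median distances of isolated DMSO sites and VTP50469 alone at 15.7 and 22.0 kb. Leaving out predicted and receptor genes gave 96.7 and 260 kb, inside the wide intervals of the reported values. Using −log10 q in place of fold, the ratio of the median of sites in both lists to that of DMSO alone was 2.46, not 1.32. Taking the partner of largest overlap gave 1 lower site (Cdk6). Unscaled fragments gave a median of 0.937 and 2 lower sites (Zfp935 and Samsn1). Centring on all matched summits gave 1.10 and 3 higher sites (Gm51579 and Immp2l among them). The alternatives without chromosome 15 and without sites of raised background were chosen after seeing the data. Counts near the weakest listed summit of 28 or 26 fragments limit what absence from a list can show, and 1 library per treatment leaves the spread between cultures unmeasured.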

Other observations

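Several genes were the nearest gene of more than 1 site. The 2 sites nearest to Dab2, an endocytic adaptor, were in both lists, 144 and 241 kb away. The 2 nearest to Epha6, an ephrin receptor, lay in the DMSO list alone, as did the 2 nearest to Flrt2, a membrane protein of cell adhesion. At Tbl1xr1, which encodes a component of corepressor complexes, a site 30.2 kb away was in both lists and one 116 kb away in the DMSO list alone. Near Ptgs2, the inducible cyclooxygenase, a site 56.5 kb away was in the DMSO list alone and one 89.3 kb away in the VTP50469 list alone.

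Of the 36 sites within 10 kb of a coding gene, strand was known for 31, and 22 of these lay upstream and 9 downstream of the gene. The 63 DMSO peaks between genes with a neighbour within 50 kb were found again at 48, or 76.2% (63.8 to 86.0%).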
